A study of Mus musculus with 4 samples.

Results

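The 2 h control was 1 of 4 samples of total RNA, all from the CA1 area of the mouse hippocampus, and was set against the 3 other controls, taken at 1, 4 and 6 h. All 4 samples came from young male C57BL/6J mice, an inbred strain, that an experimenter had handled and that received nothing else. The hours count from the last shock given to other mice, which are not analysed here, until RNA was taken from the controls. Each hour is 1 sample on 1 Affymetrix array, the number of mice per sample is not stated in the sources used here, and the comparison asks how the 2 h array differed from the other control arrays. With 1 array on one side there is no replicate check and no test, and "higher" and "lower" describe these arrays only. The spread of the 1, 4 and 6 h arrays is the yardstick for a difference, although they were taken at different hours and are not replicates of each other.

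A probe set is a group of short probes for one stretch of a transcript, and its signal is the authors' scaled intensity. Signals under 36.8 were raised to that value, which is the pooled 20th percentile. Of 12488 probe sets, 4870 were compared, those that are not manufacturer controls and whose geometric mean over the 4 arrays was at least 289, the pooled 60th percentile. They covered 3912 genes through probe sets with 1 gene symbol. A difference is the log2 signal at 2 h minus the mean log2 signal of the 1, 4 and 6 h arrays, so that 1 stands for 2-fold. The range of the 3 others is their highest minus their lowest log2 signal. Where 4 signals are given, they are those at 1, 2, 4 and 6 h, and a single signed value in brackets after a gene is its difference.

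Area CA1 consists mainly of excitatory pyramidal neurons, with interneurons, astrocytes, oligodendrocytes, microglia and vessels between them, and its output is needed for contextual memory. Many neuronal transcripts have long 3' ends that occur in several lengths, so that probe sets for one gene can lie far apart on its RNA. RNA is labelled for such arrays from the poly(A) tail inwards, which makes signal from regions far from the tail depend on how far the labelled copies extend.

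The control transcripts set the 2 h array apart. The manufacturer's probe sets lie in the 5', middle and 3' regions of the same RNA. At the 5' end of Gapdh, a glycolytic enzyme, the signals were 8721, 29261, 11961 and 10204 at 1, 2, 4 and 6 h. At its 3' end they were 35720.5, 31659, 43352.5 and 40320.1. The 5' signal at 2 h was above that of the 3 other arrays and the 3' signal below all of them, and the 3' over 5' ratio was 1.08 at 2 h and 3.62 to 4.10 on the others. For pyruvate carboxylase, a mitochondrial enzyme, the ratio was 2.43 at 2 h and 4.60 to 5.15 on the others, and its second middle probe set gave 354 against 39.5 to 62.9. The 2 h ratio was also the lowest of the 4 arrays for beta-actin, at 1.72 against 2.27 to 2.93, and for the transferrin receptor, at 2.55 against 3.28 to 5.28. The receptor's 5' signals on the other arrays were only 25.2 to 34.6, under the 36.8 to which low signals were raised elsewhere, so its ratios are poorly measured. The 2 h ratio was the highest for 18S ribosomal RNA, at 6.41 against 3.34 to 6.11. The 9 spiked-in bacterial controls averaged 0.653 times their mean of the other arrays at 2 h, and 0.934 to 1.04 times on those arrays. The part of these measures in the differences below was not tested.

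**Figure D1:**
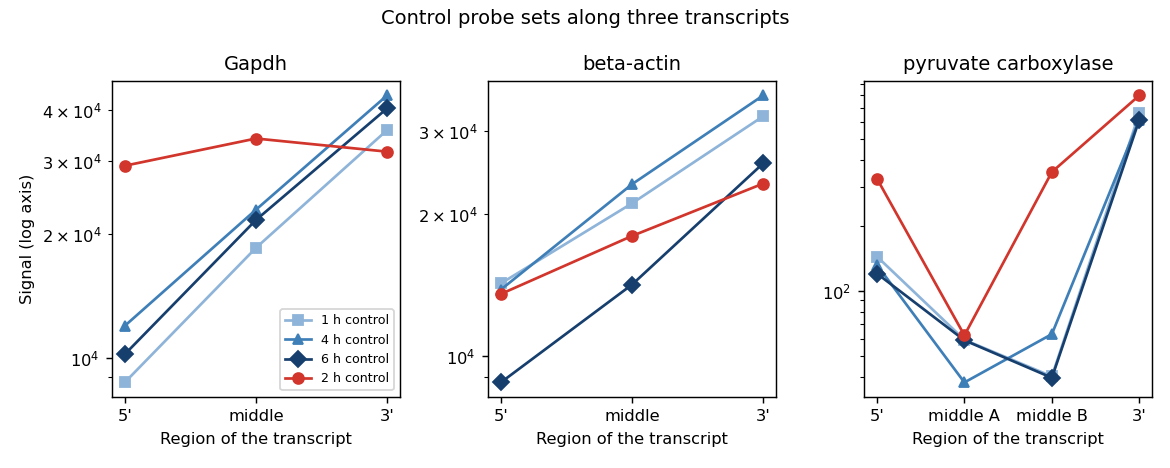
Signals of the control probe sets (log axis) in regions from the 5' to the 3' end of Gapdh, beta-actin and pyruvate carboxylase, 1 line per array. At 2 h the Gapdh line is nearly level, from 29261 at the 5' end to 31659 at the 3' end, while the 1, 4 and 6 h lines climb toward the 3' end.

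The labelled region was checked against cell type markers. Wfs1, which marks CA1 pyramidal neurons, gave 2293, 1877, 2484 and 2508 at 1, 2, 4 and 6 h and was lowest at 2 h, with a difference of -0.37. Ccn3, another CA1 marker, was also lowest at 2 h (4235, 3096, 4390.3 and 4548), while Pou3f1 lay within the range of the others (484, 623, 764 and 443). The summed signal of these 3 compared CA1 markers was 5596 at 2 h and 7013 to 7638 on the other arrays. In RNA from whole tissue, fewer cells of a type and less RNA per cell cannot be told apart. Prox1, which defines dentate granule cells, was not among the compared probe sets, with signals of 57.9, 12.5, 17.8 and 18.2.

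The median difference over the 4870 probe sets was -0.04 and its SD across probe sets was 0.47. The median size of a difference was 0.27, against a median range of the 3 others of 0.35. Against the mean of the 3 others, the 2 h signal was 2-fold or more higher for 142 probe sets (2.92%) and 2-fold or more lower for 51 (1.05%). The 2 h signal lay above all 3 other arrays for 1418 probe sets (29.1%) and below all of them for 1714 (35.2%). It was at least 2-fold above the highest of them for 81 probe sets (1.66%) and at least 2-fold below the lowest for 20 (0.411%), a count of 30 without the 1 h array and 43 without the 4 h array. Differences of at least 4-fold numbered 13 higher and 3 lower, and those of at least 8-fold 2 higher and 0 lower.

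The size of each difference was set beside the range of the 3 others. The size was larger than the range of the 3 others for 1977 probe sets (40.6%), and for 133 of the 142 higher and 50 of the 51 lower ones. The 1, 4 and 6 h arrays themselves ranged over at least 2-fold for 172 probe sets (3.53%), so the 2-fold threshold largely fixed the counts of 133 and 50 in advance. The 2-fold differences were more frequent among dim probe sets. When the compared probe sets were divided into 4 equal groups by mean signal, 53 were 2-fold higher and 20 lower in the dimmest group, and 20 were higher and 10 lower in the brightest. The median differences of these groups were 0.02, -0.01, -0.03 and -0.11 from dimmest to brightest. For 34 of the 142 higher probe sets the geometric mean of the 3 others was under 289, so that they entered through their 2 h signal, and 24 of the 51 lower ones had a 2 h signal under it.

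**Figure D2:**
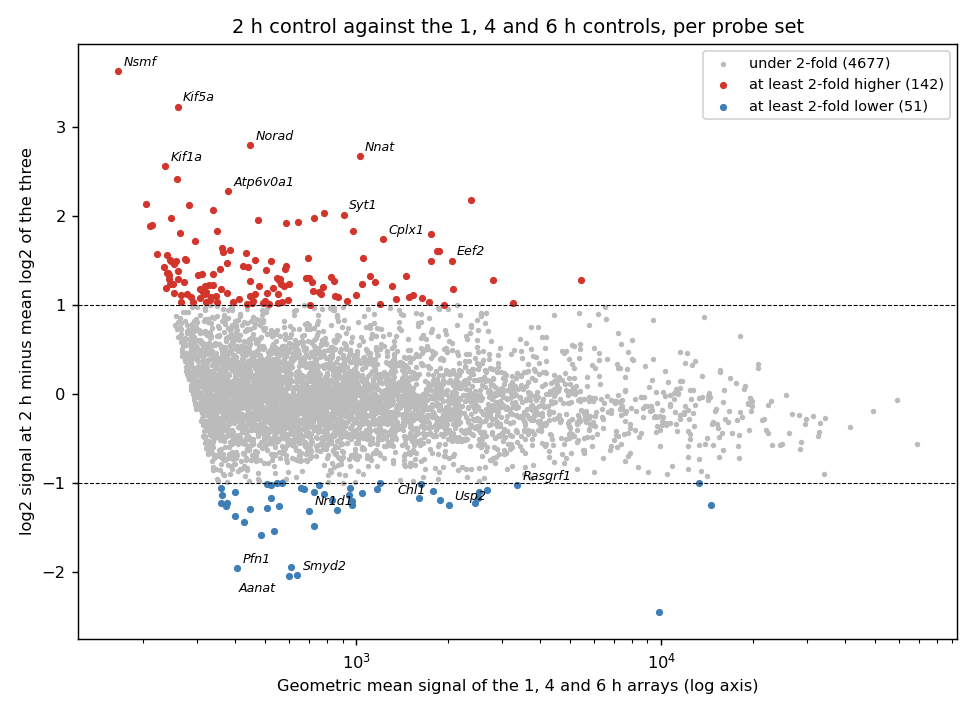
Difference at 2 h (log2 units, vertical) against the geometric mean signal of the 1, 4 and 6 h arrays (log axis, horizontal), 1 point per compared probe set. The 142 red points lie at or above the dashed 2-fold line and the 51 blue points at or below the lower one. Points left of 289 are kept only where the 2 h signal is high, because the filter uses the mean of all 4 arrays, so the shape at the left edge comes from the filter.

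The threshold cut through a continuous distribution. H1f10, a linker histone, Ap2a2, a subunit of the clathrin adaptor AP2, and Map1lc3a, an autophagosome protein, lay just inside 2-fold higher, with folds of 2.00, 2.01 and 2.01. Fkbp8, Josd2 and a probe set of the AMPA receptor gene Gria2 lay just outside. On the lower side Slmap, the clock output gene Dbp and Edem3 lay just inside, and S100a13, Emp3 and the brighter probe set of Nsmf just outside, at folds of 0.50, 0.50 and 0.50.

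The probe sets with the highest differences among those with 1 gene symbol included motor, synaptic and vesicle genes of neurons. Nsmf, which carries signals from synaptic NMDA receptors to the nucleus, gave 151, 2041, 187 and 160.5 at 1, 2, 4 and 6 h on its dimmer probe set, a difference of 3.62 or 12.3-fold. Its brighter probe set gave 1090.4, 497, 969 and 913, a difference of -0.99, so the 2 h array was highest on one and lowest on the other. Kif5a, a kinesin heavy chain that moves cargo along axons, gave 260.2, 2420.3, 286 and 233 and was 9.35-fold higher at 2 h, with a range of the 3 others of 0.29. A further Kif5a probe set was too dim to be compared, with 8.1, 188, 138.5 and 98.4. Kif1a, the motor of synaptic vesicle precursors, gave 193, 1384, 367 and 184.5, a difference of 2.55. For both motors the 2 h array was far above the others, and the 4 h array was the next.

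Norad, a long noncoding RNA that binds Pumilio proteins, gave 490.4, 3106, 449 and 407.5 on its dimmer probe set, a difference of 2.79, and a difference of -0.44 on its brighter one, where the signals were 17669.7, 12591.5, 18879 and 14974. The imprinted gene Nnat, a small membrane protein abundant in developing brain, gave 931, 6529, 1179.9 and 979.6, a difference of 2.67. The 1, 4 and 6 h signals of Nnat lay close together and the 2 h signal stood above them. Rangap1, the activator of the Ran GTPase in nuclear transport, had a difference of 2.41 on its dimmer and 0.47 on its brighter probe set. Atp6v0a1, a subunit of the vacuolar proton pump that acidifies synaptic vesicles and lysosomes, gave 342, 1835, 369 and 433, a difference of 2.27.

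Synaptotagmins, the membrane proteins of vesicle trafficking, were also among the 15 highest genes. Syt1, the calcium sensor of transmitter release, gave 722, 3671, 1024 and 1016, a difference of 2.01 against a range of the 3 others of 0.50. Syt11 gave 716, 3190.0, 832 and 803.5, a difference of 2.03 with a range of 0.22. Both had 1 compared probe set, and in both the 2 h array was the highest and the 1 h array the lowest. The other genes of the 15 were Ttr, which makes the thyroxine carrier transthyretin (2.13), the brain sulfotransferase Sult4a1 (2.12), Timp2, an inhibitor of metalloproteinases (2.06), Rab7, a GTPase of late endosomes (1.98, and -0.48 on its brighter probe set), Actb (1.98) and Rrp1, a ribosomal RNA processing protein (1.95). For Nsmf, Kif5a, Kif1a, Rangap1, Ttr, Sult4a1 and Rab7 the mean of the 3 others on these probe sets was under 289, so they were compared because of their 2 h signal.

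The lowest gene was Aanat, which makes the melatonin precursor N-acetylserotonin, with signals of 667, 146, 677 and 484 and a difference of -2.04. Smyd2, a lysine methyltransferase, gave 698, 156.5, 718 and 518, a difference of -2.03. Fancc, a DNA repair gene of the Fanconi anaemia pathway, gave 660.1, 159, 648.5 and 525, a difference of -1.94. These 3 probe sets had similar signals on each of the 4 arrays, with the 2 h array lowest and the 6 h array second lowest. Pfn1, the actin-binding protein profilin, gave 309, 105, 404 and 539, a difference of -1.95. Its 2 h signal was below the other 3, which were themselves spread over a range of 0.80.

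The guidance receptor ligand Sema4b (-1.54), the G protein alpha subunit gene Gna11 (-1.48 on its dimmer and -0.72 on its brighter probe set), the cytochrome Cyp2c39 (-1.43) and the retinol dehydrogenase Rdh11 (-1.36, and -0.21 on its brighter probe set) followed. For Cyp2c39 the 4 h signal, 203, was close to the 2 h signal, 159, and the range of the 3 others, 1.72, was larger than the difference. The remaining ones were Nr1d1, Trmt1, a tRNA methyltransferase (-1.30), Csk, the kinase that inactivates Src (-1.29), Anxa7, a calcium-dependent membrane binder (-1.28), Igsf10 (-1.25), Otud4, a deubiquitinase (-1.25), and Usp2. Among the 15 lowest genes, Cyp2c39 alone had a range of the 3 others above the size of its difference.

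**Figure D3:**
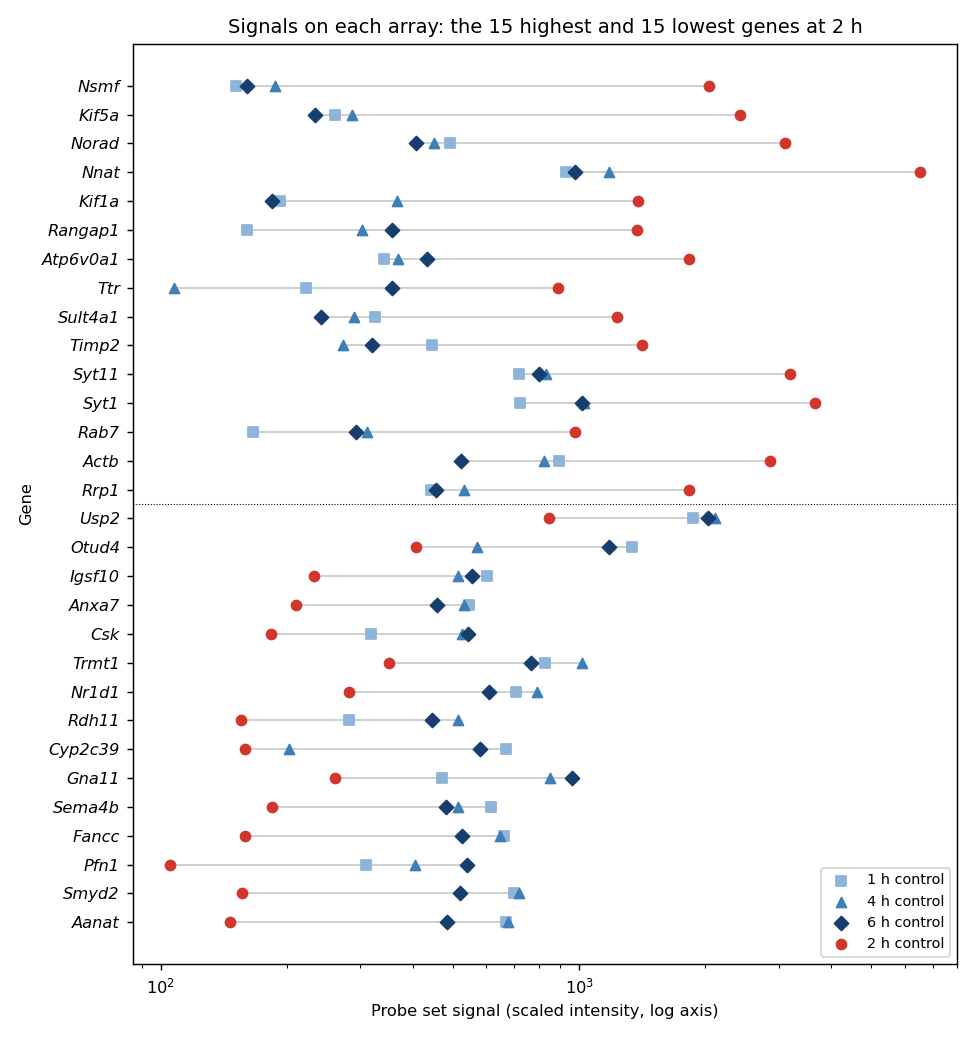
Probe set signal (log axis) on each array for the 15 highest genes, above the dotted line, and the 15 lowest, below it, with 1 symbol per array and a grey line over the range of the 4. The 2 h array (red circles) lies to the right of the other 3 in every upper row and to the left in every lower row.

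Several probe sets were compared for 457 genes, 961 probe sets in all. For 224 of these genes (49.0%) all probe sets had the same sign. The median gap between the highest and lowest difference of a gene was 0.45 at 2 h. The same gap, computed from each other array's own deviation from the mean of the 3 others, was 0.19, 0.21 and 0.16 at 1, 4 and 6 h, but each of these arrays is part of that mean, which makes its deviation smaller. The gap at 2 h was at least 2-fold for 74 genes (16.2%).

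In 4 genes every compared probe set was at least 2-fold higher, in 0 genes every one was 2-fold lower, and in 0 genes probe sets were 2-fold apart from the mean in opposite ways, which held for 1 gene without the 4 h or without the 6 h array. The 4 were Nr4a2, an orphan nuclear receptor induced by activity, Fdps, which makes farnesyl pyrophosphate, Csrp1, a LIM-domain protein, and Actb, cytoplasmic actin. Nr4a2 gave 426, 1123, 406 and 274 on one probe set and 293, 735.5, 473.5 and 232 on the other, differences of 1.63 and 1.21. On both, the 2 h array was highest and the 6 h array lowest. Fdps was 2.23-fold and 2.84-fold higher, and Csrp1 2.15-fold and 2.89-fold.

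Actb shows how much the probe set matters. Its compared probe sets gave 1744, 3549, 1959 and 1522 and 895, 2862, 825 and 522, differences of 1.03 and 1.98. The much brighter control probe sets for the same mRNA had differences of -0.41 at the 3' end, -0.08 in the middle and 0.17 at the 5' end. The 2 h array was thus highest on the dim probe sets and lowest of the 4 on the bright 3' one.

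Both probe sets were close to 2-fold higher for Dlst, a subunit of the oxoglutarate dehydrogenase complex (1.04 and 0.96), and for Ap2a2 (1.00 and 0.94). For Grina, an NMDA receptor-associated protein, the differences were 0.91 and 1.80. Grina was bright, with 4824, 10072, 5900.5 and 5422 on its brighter probe set, highest at 2 h. Usp2 had the largest shared lower difference, -1.24 and -0.88.

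Of the 44 genes with any probe set at least 2-fold higher, 18 had another with a negative difference, and of the 11 with any at least 2-fold lower, 3 had another with a positive one. The dimmest compared probe set was 2-fold higher in 35 genes and the brightest in 10. The dimmest was 2-fold lower in 8 genes and the brightest in 3. A dim probe set can be compared because of a high 2 h signal, so the higher counts are not independent of the filter. After Nsmf and Norad, the widest gaps were those of Mobp, a myelin protein, Rab7, Mapre3, a protein of growing microtubule ends, Rangap1, Bin1, a membrane-bending protein, and Gtf2i, a transcription factor. Mobp had 4 compared probe sets. The brightest gave 11091, 8925, 16716 and 12594, a difference of -0.57, and the other probe sets had differences of 0.73, 1.61 and 1.92. Bin1 gave 4370.4, 4511, 4663 and 4251 on its brighter probe set, where the 2 h array lay inside the range of the others, and 674, 2448, 759 and 519 on its dimmer one, where it stood above them.

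**Figure D4:**
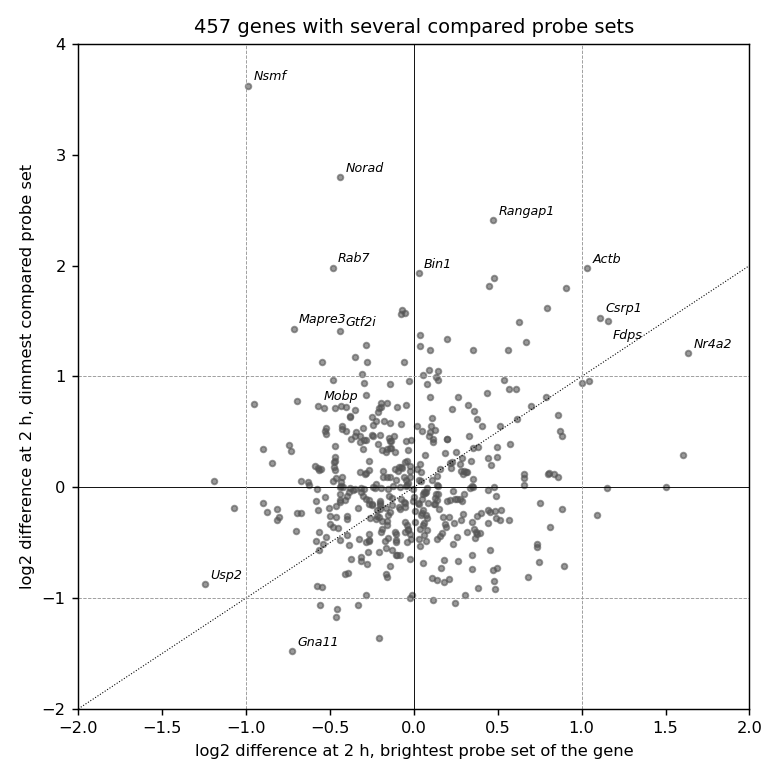
Difference at 2 h (log2 units) on the dimmest compared probe set (vertical) against that on the brightest (horizontal), 1 point for each of 457 genes. Dashed lines mark 2-fold and the dotted line equal differences. Only 4 genes, Nr4a2, Fdps, Csrp1 and Actb, lie past 2-fold on all their probe sets, and Nsmf and Norad are far up on the dimmest probe set with a negative difference on the brightest.

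Probe set names carry endings for probes that are shared between transcripts or only partly unique. Among the 3957 compared probe sets with the plain ending _at, 103 were 2-fold higher and 39 lower. Of the 150 ending in _s_at, whose probes match several transcripts, often forms of one gene, 15 were 2-fold higher and 0 lower. Of the 83 ending in _g_at, 9 were higher (10.8%) and 1 lower. The 397 ending in _f_at had a median difference of -0.25, against -0.03 for the plain ending.

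The genes were then described in 33 functional classes, each gene through its brightest compared probe set. Some genes are in several classes, such as Per1 among the immediate early, clock and glucocorticoid genes, so the class values are not independent of each other. Over all 3912 genes, 1773 (45.3%) were higher at 2 h, the median difference was -0.04, the 2-fold threshold was passed upward by 87 genes (2.22%) and downward by 36 (0.92%). Over all compared probe sets, 29.1% lay above and 35.2% below all 3 other arrays at 2 h. Class counts above or below all 3 are set beside these shares, which count probe sets and not genes. Class counts past 2-fold, also those of 0, are read beside the 2.22% and 0.92% of all genes. The class medians below are read against these values, and beside the medians of the same class on the 1, 4 and 6 h arrays relative to their mean. Each of these 3 arrays is part of that mean, which makes its deviations smaller, while the 2 h array is outside it. A 2 h median outside theirs is therefore no measure of how unusual the 2 h array was. The classes were also not matched for brightness. Among the 4 equal groups of compared probe sets by mean signal, the brightest had a median difference of -0.11 and the dimmest one of 0.02. A class of bright genes can therefore lie below the median of all genes without lying below equally bright probe sets. The part of brightness in the class values was not tested. All classes except ionotropic glutamate receptors held members on both sides. Several medians under 0.1 in size turned sign under other settings and are given as values, not as directions. Class examples with a mean of the 3 others under 289 include Lin7b, Kif5a, Kif1a, Usp22, Stip1 and Sf3b3. They were compared because of their 2 h signal, so the class counts that hold them are not independent of the filter.

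**Figure D5:**
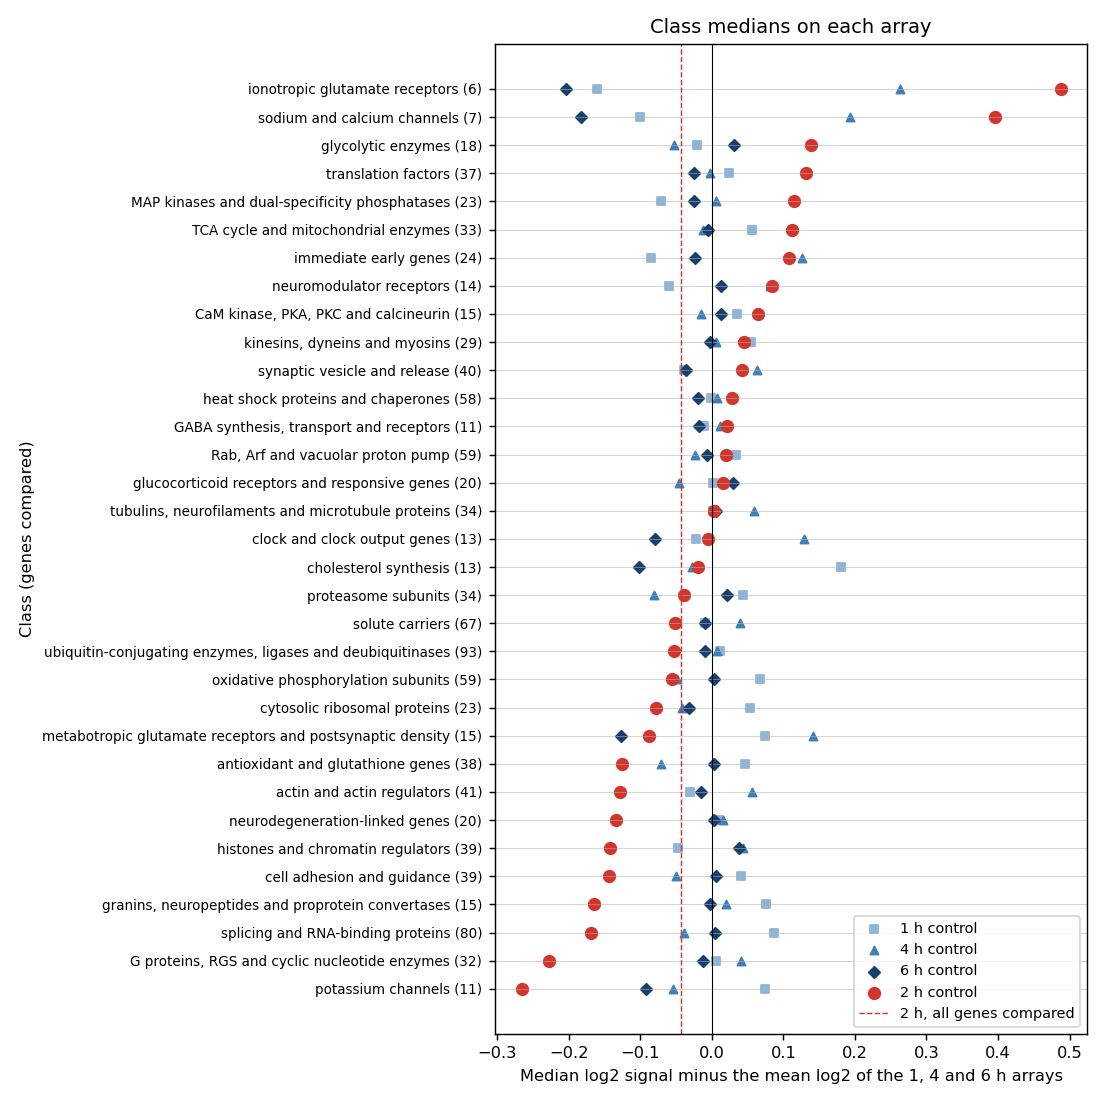
Median over the genes of each class of the log2 signal minus the mean log2 of the 1, 4 and 6 h arrays (horizontal), with 1 symbol per array and the number of genes in brackets. The 2 h symbols (red circles) spread from -0.27 for potassium channels to 0.49 for ionotropic glutamate receptors, and the dashed line marks the 2 h median over all genes, -0.04. The 1, 4 and 6 h arrays are part of the mean they are set against, which makes their deviations smaller than those at 2 h.

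Ionotropic glutamate receptors, the channels of fast excitatory transmission, were higher at 2 h in 6 of 6 compared subunit genes, 5 of them above all 3 other arrays (29.1% of all compared probe sets were). Their median was 0.49, and the 1, 4 and 6 h medians were -0.16, 0.26 and -0.20, so the 4 h array was next. The kainate receptor gene Grik5 gave 377, 1294, 554 and 389, a difference of 1.58, with the 2 h array above the others. Gria1, the main AMPA receptor subunit of CA1 synapses, gave 5098, 7482, 6737 and 3993 on its brighter probe set (0.54) and a difference of 0.97 on the other. Gria3 gave 237, 585, 550.3 and 268 (0.84), and there the 4 h signal was close to that at 2 h. For Gria2, which makes AMPA receptors calcium-impermeable, the brightest probe set gave 9066, 11500.5, 11817 and 10768, inside the range of the others. Its 2 further compared probe sets had differences of -0.18 and 1.00.

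Metabotropic glutamate receptors and postsynaptic density genes had a median of -0.09, with 7 of 15 higher. Lin7b, a scaffold protein, gave 314, 695, 350.0 and 132.5 (1.51), but the 6 h array was far below the rest and the range of the 3 others was 1.40. Dlg4, which encodes the scaffold PSD-95, gave 554, 828.5, 613 and 481 (0.60), and Dbn1, the spine actin-binding protein drebrin, gave 362, 222, 469.8 and 297 (-0.74). The 2 h array was highest for Dlg4 and lowest for Dbn1. Nrgn, which binds calmodulin in spines, gave 5620.4, 3735, 5884 and 4594, also lowest at 2 h (-0.51).

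Among 40 genes of synaptic vesicles and transmitter release, 21 were higher, 7 of them at least 2-fold, and 0 were 2-fold lower. Over all genes 2.22% were 2-fold higher and 0.92% lower, so the count of 0 says little about the class. The class median was 0.04, inside the -0.04 to 0.06 of the other arrays. Besides Syt1 and Syt11, Cplx1, which clamps and promotes vesicle fusion, gave 1139, 4088, 1278.5 and 1259 (1.74), and the vesicle protein Syp gave 758, 1679, 727 and 576 (1.30). In both the 2 h array stood alone above the rest. The scaffold of the active zone Pclo was lower (2848.5, 1268, 1819 and 2128, -0.81). The abundant fusion proteins differed less. Snap25 gave 18421, 17938, 19821 and 19356 and was lowest at 2 h (-0.10), Vamp2 gave 10783, 12915, 11696 and 12585 (0.15), and Stx1a gave 979, 1332, 1090.4 and 954 (0.40).

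Of 11 genes of GABA synthesis, transport and receptors 6 were higher, with a median of 0.02. Slc32a1, the transporter that loads GABA into vesicles, gave 3861, 2019, 3318 and 3543, lowest at 2 h (-0.82, range of the 3 others 0.22). Gad1, which makes GABA, gave 4518, 4263, 4088 and 4219, with the 2 h array inside the range of the others. The second GABA-making enzyme gene, Gad2, was outside the compared set, with 19.2, 160.2, 295 and 140.5. Gabarap, named for its binding to GABA-A receptors and also an autophagy protein, gave 1043, 3035, 1117.5 and 992 (1.53). It stood above a tight group at 1, 4 and 6 h. The receptor subunit gene Gabra2 (0.78) had a range of the 3 others of 1.33, and Gabrb1 had a difference of -0.33.

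Potassium channel genes, which set resting potential and spike repolarization, had the lowest median of the 33 classes, -0.27, but with no filter on low signals the median was 0.03. Of 11 genes 2 were higher and 7 lay below all 3 other arrays, against 35.2% of all compared probe sets. The 1, 4 and 6 h medians were 0.07, -0.05 and -0.09. Kcnk2, a leak channel, gave 2138, 1194, 2044 and 1665 (-0.70), and Kcnk1, another one, gave 1209.7, 673, 891 and 811 (-0.51). Both were lowest at 2 h. Kcnd2, which carries the dendritic A-type current, gave 725, 410.4, 474.5 and 949 (-0.75), near the 4 h signal, and Kcnq1 gave 379, 507, 418.5 and 517 (0.22), inside the range of the others.

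Sodium and calcium channel genes had a median of 0.40 with 5 of 7 higher, but -0.10 when only probe sets above the pooled 80th percentile were kept. Scn8a, the sodium channel of the axon initial segment, gave 281, 1236, 399 and 379.6 (1.82), highest at 2 h by far. Cacnb2 (376, 690.5, 491.5 and 355, 0.77) was also highest at 2 h. The N-type calcium channel gene Cacna1b gave 365, 706, 739.6 and 429 (0.53), below its 4 h signal, and Scn1a had differences of -0.27 and -0.59 on its probe sets.

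Neuromodulator receptor genes were higher in 11 of 14 cases, with a median of 0.08 that the 4 h array matched. That median was 0.16 without the 4 h array, 0.03 without the 1 h array and -0.18 with the filter at the 80th percentile. The somatostatin receptor gene Sstr4 gave 659, 998, 713 and 627 (0.58) and the adrenergic receptor gene Adra2c 479, 852, 573.5 and 729 (0.54), both highest at 2 h. The neuropeptide Y receptor gene Npy2r gave 1133.5, 729, 1073 and 1249 (-0.66), lowest at 2 h. Htr4, a serotonin receptor, had a difference of -0.23.

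Genes of G proteins, RGS proteins and cyclic nucleotide enzymes, which relay signals from such receptors, had a median of -0.23, with 10 of 32 higher (31.2%). Below all 3 other arrays lay 16 of the 32, against 35.2% of all compared probe sets. The 1, 4 and 6 h medians were -0.01 to 0.04. Adcy2, an adenylyl cyclase, gave 2947, 1678, 2775 and 2848, a difference of -0.77 against a range of 0.09. Gna11 gave 1396, 943, 1627 and 1666.5 on its brighter probe set (-0.72), and Gnb5 gave 833, 426, 586 and 710.4 (-0.72). All of these were lowest at 2 h. The phosphodiesterase gene Pde1a was higher (0.71).

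The kinases downstream were divided. Of 15 genes of CaM kinase, PKA, PKC and calcineurin signalling 8 were higher, with a median of 0.06. The coactivator gene Crebbp gave 1598, 714, 1375 and 1220.0, lowest at 2 h (-0.96). The calcineurin subunit gene Ppp3cb gave 575, 972, 633 and 619 (0.68) and the PKA subunit gene Prkar1b 5054, 8009, 5728 and 5508 (0.56, and 1.23 on its other probe set), both highest at 2 h, while the calmodulin gene Calm2 was lower (-0.77). Camk2a was outside the compared set, with signals of 41.0, 351, 195 and 43.3 on its brighter probe set. Of 23 genes of MAP kinase signalling and dual-specificity phosphatases 14 were higher, with a median of 0.11 against -0.07 to 0.01 on the others. Rasgrf1, an activator of Ras at synapses, gave 3495, 1657, 3071 and 3537.5 (-1.02), the 1 gene of the class at least 2-fold lower. The phosphatase gene Dusp2 (0.82) ranged over 2.07 on the other arrays, and Map3k3 had a difference of -0.74.

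Immediate early genes, which neurons transcribe within minutes of activity, had a median of 0.11 with 14 of 24 higher. The 4 h median was 0.13, and without the 1 h array the 2 h median was -0.02. Fos gave 291.5, 574, 412.5 and 271 (0.85) and Dusp6, which shuts off ERK, gave 759.9, 1606, 930.0 and 824.5 (0.94), both highest at 2 h. Egr1 gave 2055, 2499.8, 1716 and 2019.5 (0.38), and Nr4a1 gave 604, 793, 676 and 813 (0.20), below its 6 h signal. Junb had differences of -0.05 on its brighter and 1.57 on its dimmer probe set. Egr2 was outside the compared set, with signals of 184, 419, 192 and 108. Jund, which is expressed at rest, was bright and lowest at 2 h (18228, 10986, 20154 and 15922, -0.71).

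Clock and clock output genes split by member. Nr1d1, the clock repressor REV-ERB alpha, gave 706, 282, 792 and 609, a difference of -1.31 against a range of 0.38. Usp2, a deubiquitinase under clock control, gave 1875, 846, 2115 and 2031 and 1720.5, 1017, 1949 and 1947 on its probe sets, with ranges of 0.17 and 0.18. Dbp, a clock-controlled transcription factor, gave 621, 285, 520.2 and 574.5, a fold of 0.50. In all of these the 2 h array was the lowest, and these 3 genes were the members at least 2-fold lower among 13 compared (36 of 3912 genes, 0.92%, over the whole set). Dbp only just passed 2-fold, and its difference was -1.07 to -0.94 over the settings tried. The list was chosen with earlier results of these data known, so the count of 3 is not independent of them. Arntl, which encodes the activator BMAL1, was lowest at 2 h as well (532, 404, 679 and 580.1, -0.56). That gene, Tef and Csnk1d are named after their values were seen.

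Other clock members were higher. Per1, a repressor that glucocorticoids and activity also induce, gave 269.8, 642, 407.5 and 389 (0.88). Tef, a relative of Dbp, gave 1977, 3528, 2474 and 2475 (0.62), and the clock kinase gene Csnk1d gave 2048, 3127, 2177 and 1702 (0.67, and 1.31 on its other probe set). All were highest at 2 h. The class median was -0.01, with 6 of 13 higher. Cry2 and Per2 were outside the compared set, Cry2 with 116, 592, 178.5 and 191 and Per2 with 123, 83.4, 159 and 96.6.

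Glucocorticoid receptors and responsive genes had a median of 0.02, with 10 of 20 higher and 0 at least 2-fold either way. Zbtb16 gave 2420.5, 1284, 2366 and 2097, lowest at 2 h (-0.83). Fkbp5, a chaperone of the receptor, gave 787, 1146, 1058 and 1108 (0.24), and Sgk1, a kinase, gave 963, 732, 645 and 763 (-0.09). For Fkbp5 the 1 h array was low and the rest close together, and for Sgk1 the 2 h array lay inside the range of the others. Cebpd had a difference of -0.46 and Errfi1 of 0.32 and 0.74 on its probe sets. Tsc22d3, also called GILZ, was outside the compared set, with 166, 42.9, 136 and 192.

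Motor proteins had a median of 0.04, which turned to -0.08 without the 4 h array. Of 29 kinesin, dynein and myosin genes 17 were higher. At least 2-fold higher were 2, Kif5a and Kif1a (2.22% of all genes were). Both of these were compared because of their 2 h signal. The dynactin gene Dctn6 was lower (-0.56). The dynein gene Dynlrb1 had a difference of -0.84 on its brighter probe set, smaller than its range of 1.16, and of 0.21 on the other. Among 34 tubulin, neurofilament and microtubule genes 17 were higher and the median was 0.00. Map6, which stabilizes microtubules, gave 395, 1110.3, 531 and 518 (1.22), highest at 2 h. The abundant tubulin gene Tuba1a gave 30973, 18334, 43199 and 29718 on its brightest probe set (-0.90), and Mapt, which encodes tau, gave 9179, 4749, 8702 and 7329.5 (-0.82, with -0.77 and -0.29 on its dimmer ones), both lowest at 2 h. The second Tuba1a probe set had a difference of 0.35.

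Actin and its regulators had a median of -0.13 (-0.06 without the 4 h array), with 17 of 41 higher. Above all 3 other arrays lay 14 and below all of them 22, against 29.1% and 35.2% of all compared probe sets. Actb and Pfn1 were the members past 2-fold. Capzb, which caps filaments, gave 1922, 4425, 3721 and 2143 (0.83, smaller than its range of 0.95), and the cross-linker gene Actn1 gave 1605, 1089, 2211 and 2009 (-0.82). Adhesion and guidance genes were lower in 25 of 39 cases, with a median of -0.14 and 3 at least 2-fold lower (0.92% of all genes were). Besides Sema4b these were Chl1, an adhesion molecule of the L1 family, with 2020.0, 830.5, 1702 and 1946 (-1.18), and the semaphorin receptor gene Plxnd1, with 615, 254, 425 and 509 (-1.01). Both were lowest at 2 h. Efna3, an ephrin, was higher (0.90).

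Protein turnover and folding genes had medians near that of all genes. Of 93 ubiquitin-conjugating enzymes, ligases and deubiquitinases 37 were higher, with a median of -0.05. At least 2-fold higher were 4 and lower 2, against 2.22% and 0.92% of all genes. The deubiquitinase gene Usp22, compared because of its 2 h signal, gave 211, 617, 265 and 251 (1.36). The ligase genes Trim37 and Rnf167 had differences of 1.31 and 1.26, and Usp2 was lower (-1.24, and -0.88 on its dimmer probe set). Proteasome genes had a median of -0.04, with 15 of 34 higher. Within the regulatory particle Psmd3 gave 528, 1343, 612 and 597 (1.22) and Psmd11 gave 2330.3, 1275, 2940.3 and 2812 (-1.07, and -0.19 on its dimmer probe set), highest and lowest at 2 h. The proteasome activator genes were split as well, Psme3 at -0.95 and Psme1 at 0.57.

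Heat shock proteins and chaperones had a median of 0.03, with 32 of 58 higher. At least 2-fold higher were 3 and lower 0, against 2.22% and 0.92% of all genes. Hspa4l gave 556, 1373, 536 and 594, a difference of 1.29 against a range of 0.15. Its relative Hspa4 went the other way, with 4796, 2970.4, 4772 and 4634, -0.67 and a range of 0.05. The HSP90 cochaperone genes Stip1 (217, 574, 265 and 255, 1.23) and Cdc37 (783, 1854, 849 and 996, 1.09) were highest at 2 h. Stip1, with a mean of 245 on the 3 others, was compared because of its 2 h signal.

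Glucose breakdown genes, a list that also holds a glucose transporter and pyruvate dehydrogenase genes, were higher in 15 of 18 cases (83.3%). Their median was 0.14, against -0.05 to 0.03 on the other arrays. Pfkm, the muscle-type subunit of phosphofructokinase, gave 832, 3455.5, 1142 and 962 (1.83). Ldhb, a lactate dehydrogenase subunit, gave 1565, 2817, 1216 and 1282 (1.07), and Tpi1, triosephosphate isomerase, gave 6242, 8656, 5549 and 6316 (0.52). In each the 2 h array was highest. Eno3 was the lowest member (-0.40). Gapdh was measured by control probe sets alone, given above.

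Oxidative phosphorylation genes were lower in 39 of 59 cases, with a median of -0.06 and 0 members at least 2-fold either way. The part of brightness in that median was not tested. Uqcrc2 and Uqcrc1, the core subunits of complex III, went opposite ways, 7017, 4529.8, 8050.5 and 7741 (-0.74) and 2116, 3593, 2315 and 2452 (0.65). In complex I, Ndufv1 had a difference of 0.64 and Ndufab1 of -0.58. The citric acid cycle and mitochondrial enzyme list had a median of 0.11 (0.18 without the 1 h array) with 19 of 33 higher, but of -0.05 when only probe sets above the 80th percentile were kept. Beside Dlst, its creatine kinase gene Ckb gave 6651, 11863, 7453 and 5778 (0.85), highest at 2 h. The channel gene Vdac2 (-0.90) and the superoxide dismutase gene Sod1 (8478, 4785, 6849 and 8043, -0.70) were lowest at 2 h. Antioxidant and glutathione genes had a median of -0.13 (-0.23 without the 4 h array), with 13 of 38 higher, and Txnl1 (-0.91), Gclc, which makes the glutathione precursor (-0.74), and Txndc5 (-0.71) were the lowest. Catalase, Cat, was the highest (0.61).

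Splicing and RNA-binding protein genes had a median of -0.17, with 31 of 80 higher (38.8%, against 45.3% of all genes) and 0 at least 2-fold either way. Below all 3 other arrays lay 36 of the 80, against 35.2% of all compared probe sets. The 1, 4 and 6 h medians were 0.09, -0.04 and 0.00. Fmr1, which represses translation at synapses, gave 504, 289, 417 and 420.0 (-0.62), and Rbm14 gave 316, 208, 332.5 and 379 (-0.71), both lowest at 2 h. The neuronal RNA-binding protein gene Elavl3 gave 555, 1196.5, 772 and 569.7 (0.94) and the splicing factor gene Sf3b3 had a difference of 0.77. Histones and chromatin regulators had a median of -0.14, and of -0.04 without the 1 h or without the 6 h array, with 16 of 39 higher. The deacetylase gene Hdac5 gave 1287, 2959, 1667 and 1813 (0.91), and the demethylase gene Kdm3b gave 911, 533, 844 and 801 (-0.67).

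Cytosolic ribosomal protein genes were higher in 5 of 23 cases (21.7%), with a median of -0.08 (-0.14 without the 4 h array) against 0.05, -0.04 and -0.03 on the other arrays. Rpl22 was the highest (311, 596, 350.4 and 226, 1.03). Rps28 gave 32547, 23483, 34015 and 31029 on its brightest probe set, lowest at 2 h (-0.47), with differences of -0.34 and 0.71 on the other compared probe sets, and Rps27 had a difference of 0.29. Rps13 (-0.69) ranged over 1.85 on the other arrays. Ribosomal protein genes have many near-identical pseudogenes, so these probe sets may share signal. The brightest and dimmest of the 4 groups of compared probe sets had medians of -0.11 and 0.02. The part of brightness in the class median of -0.08 was not tested. Translation factor genes had a median of 0.13 (0.06 without the 6 h array) with 20 of 37 higher. The elongation factor genes Eef2 (2048, 5777.5, 2289 and 1839, 1.49) and Eef1a1 (13953, 25287, 15071 and 12611, 0.87) were highest at 2 h, and the initiation factor genes Eif4g2 (455, 257, 445 and 526, -0.88) and Eif4g3 (2831, 1413, 2296 and 2451, -0.83) were lowest.

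Small GTPases of vesicle traffic and the proton pump had a median of 0.02, with 31 of 59 higher. At least 2-fold higher were 4 and lower 0, against 2.22% and 0.92% of all genes. After Atp6v0a1, Arf3 gave 1423, 5642, 2438 and 1849 (1.60, and 0.29 on its other probe set) and the pump subunit gene Atp6v0b gave 1618, 4934, 2081 and 1589 (2.82-fold). Rab34 was the lowest (-0.72). Solute carriers had a median of -0.05 with 27 of 67 higher. The zinc transporter gene Slc30a4 had a difference of -0.80, and the mitochondrial carrier genes Slc25a14 and Slc25a25 differences of 0.76 and 0.68. The cholesterol synthesis list, which also holds fatty acid genes, had a median of -0.02 with 6 of 13 higher. Its 1 h median was 0.18 and its 6 h median -0.10. Sqle gave 952, 1218, 712 and 564 (0.75), Scd1 had a difference of -0.44 on its brighter and 0.05 on its dimmer probe set, and Fasn one of -0.34.

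Secretory granule, neuropeptide and convertase genes were higher in 4 of 15 cases, with a median of -0.16 (-0.10 without the 6 h array). The granins were split. Chga gave 640.3, 1211, 646 and 608, a difference of 0.94 against a range of 0.09, and Chgb gave 13473, 7543, 13045.5 and 10508 (-0.70). Pcsk1n, an inhibitor of prohormone convertase, gave 7329, 10863, 7206 and 7552 (0.56, range 0.07), and the somatostatin relative Cort had a difference of -0.54. Genes linked to neurodegeneration had a median of -0.13, with 8 of 20 higher. Above all 3 other arrays lay 8 and below all of them 11, against 29.1% and 35.2% of all compared probe sets. Aplp2, a relative of the amyloid precursor, gave 1113, 2112, 1039 and 1116.5 (0.96). Apbb1, which binds that precursor, gave 2110.5, 4798, 2769.9 and 2863 (0.91). Itm2b gave 12213, 6808, 12712.5 and 11699.7 (-0.84, range 0.12).

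Markers of other cells a CA1 dissection could hold were summed over their compared genes. The choroid plexus list summed to 1603 at 2 h and 440 to 707 on the others, from 2 of the 5 genes on the array. The list's median was 1.61, but 1.09 with the filter at the 40th percentile and 0.10 with no filter. Ttr carried most of the excess, and its mean of 204 on the 3 others was under the filter. Ttr gave 222, 892, 107.5 and 356 and Igfbp2, an IGF-binding protein, 317, 711, 332 and 350.3, differences of 2.13 and 1.09. The 2 h array was highest for both, while for Ttr the other arrays ranged over 1.73. Oligodendrocyte markers were higher in 5 of 6 cases, with a median of 0.22 (0.13 without the 6 h array) against 0.21 at 4 h, and their sum of 22897 lay between 22541 and 28936. Mag gave 566, 1072, 775.5 and 614 (0.73) and Mbp 7791.5, 9349.7, 7979 and 7387 (0.28) on its brighter probe set. The 1 lower member was Mobp, bright and lowest at 2 h on its brightest probe set (-0.57), with differences up to 1.92 on its dimmer ones.

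Microglial markers were higher in 4 of 6 cases, with a median of 0.37, but of -0.05 when only probe sets above the 80th percentile were kept, and the sum was 8237 against 7285 to 8110. The complement gene C1qa gave 905, 1623, 834.5 and 796 (0.94) and C1qb 617, 828.5, 421 and 567 (0.65), highest at 2 h, while Csf1r, the receptor microglia need to survive, was lowest (1724, 1334, 1604 and 1878, -0.38). Astrocyte markers were higher in 4 of 7 cases with a sum of 21963 against 19980 to 20772. Their median of 0.15 turned to -0.08 when probe sets of a gene were averaged. Aldoc had a difference of 0.39 and Gfap of -0.43 on its brighter probe set.

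Interneuron markers had a median of -0.07, which turned to 0.03 without the 1 h array, with 2 of 7 higher and a sum of 37306 against 36880.0 to 39141. Sst gave 11705.5, 10161, 12619 and 12611 (-0.28) and Cck 15157, 15738, 13820.5 and 12095 (0.21). The CA3 list had a median of 0.27 but -0.22 above the 80th percentile, and a sum of 9717 against 12026 to 14922, since Chgb made up most of it. Nptx1 was higher (0.89). The 4 compared meningeal markers were all higher (median 0.11, and 0.17 without the 6 h array) and summed to 14499.6 against 11822 to 14582, with Ptgds at 0.30 on its brightest probe set and -0.25 and -0.59 on the others. Of the rest, the blood marker Hba-a1 had a difference of -0.05, the endothelial Cldn5 and Flt1 -0.60 and -0.08, Calb1 of the dentate list -0.13, and the striatal Penk -0.47. The thalamic Prkcd and Tcf7l2 had 0.44 (-0.03 on its dimmer probe set) and 0.07, and their median of 0.26 was -0.03 on plain _at probe sets. The part of these cell markers in the class differences was not tested.

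Some modest differences stood far outside a very tight group of other arrays. Cct3, a chaperonin subunit, gave 505, 1113, 511 and 508 on one of its 3 compared probe sets, a difference of 1.13 against a range of 0.02, while its brightest probe set had a difference of -0.55. Glo1, which detoxifies methylglyoxal, gave 402, 671.5, 412 and 407 (0.72) on its dimmer probe set and -0.20 as the difference on its brighter one. Dhrs7, a dehydrogenase, gave 935, 675, 946 and 942 (-0.48), Tob1, an antiproliferative protein, 893, 626, 877 and 878 (-0.50), and Tbxas1, thromboxane synthase, 389, 266, 386 and 383 (-0.54). In these the 1, 4 and 6 h arrays nearly coincided and the 2 h array alone was off. The others ranked highest by size over range were Ptcd2 (0.51), Cab39l (0.82) and Eif3m (0.22), which were higher, and Prss32 (-0.27) and Tsc2 (-0.36), which were lower. A range over 3 arrays measures spread poorly, and these ranks rest on it.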

How the data were processed

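The authors deposited linear intensities, 1 for each probe set of an array, made by software not given in the sources used here. The mean without the highest and lowest 2% of values was 500.3 on every array, as scaling to a common mean would give. No further normalization was applied. The values carry no detection calls. Signals were raised to the pooled 20th percentile (36.8), log2 was taken, and the 66 control probe sets and those under the pooled 60th percentile were left out. This filter uses the mean of all 4 arrays, so a probe set high on 1 array can enter through it.

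Probe sets were named by the platform's annotation, with symbols updated through gene identifiers in a RefSeq table for 4410 of the 4416 compared probe sets with 1 symbol. Another 184 had several symbols and 270 none, and none of these is named. The values carry no genome build, so no coordinates are given. A gene entered a class through its compared probe set with the highest mean. The members, the 33 classes and 13 marker lists were chosen with earlier results of these data known, and 18 compared genes caught by name patterns but outside the family were taken out after their values were seen.

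The genes named are the 15 highest and 15 lowest, in each class the 3 with the largest difference either way and, where fewer than 2 went one way, the most extreme that way, the 8 genes whose probe sets shared a direction with the largest smallest size and the 8 with the widest gap, the 5 each way with the largest size over the range of the 3 others, the 3 nearest 2-fold on each side, and a fixed set of activity, clock, glucocorticoid, synaptic and marker genes. Marker genes are given as examples, and no probe set was matched here to Grin1 and Arc of the fixed set. No test was made, since 1 array stands on one side. The number of arrays limits the precision. Alternatives covered the fold threshold, floor, filter, normalization, centre of the 3 others, probe sets used and leaving out each other array. Steps were tested on simulated data. Python 3.11.15, pandas 2.3.3, numpy 2.4.6 and matplotlib 3.10.9 were used.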

Additional observations from a re-analysis of the deposited data

How the results depend on the processing

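The counts at least 2-fold higher, lower, above all 3 other arrays and below all of them were 142, 51, 81 and 20. With a 1.5-fold threshold they were 440, 353, 240 and 149, and with a 3-fold threshold 31, 5, 21 and 4. With the filter at the 40th percentile they were 332, 181, 149 and 77, at the 80th percentile 47, 20, 32 and 7, and with no filter 770, 443, 366 and 150. Genes whose probe sets all differed 2-fold the same way numbered 8, 2 and 20 under these 3 filters and 0 on plain _at probe sets, against 4. Genes with 2-fold differences in opposite ways numbered 1 with the filter at the 40th percentile, 10 with no filter, and 1 with quantile normalization and with median centring, against 0. Leaving out 1 of the 3 other arrays gave 135 to 169 higher, 51 to 75 lower, 93 to 111 above all, 30 without the 1 h array, 43 without the 4 h array and 25 without the 6 h array below all, 3 to 4 genes sharing a direction and 0 to 1 opposed. With the comparison fixed at 2-fold, the 4 counts of probe sets stayed within 1.5 times of the main value under quantile normalization, median centring, the median of the 3 others, both other floors and plain _at probe sets.

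Of 27 classes and marker lists with a median of at least 0.1 either way, 8 turned sign under some setting. The 80th percentile filter gave -0.10 for sodium and calcium channels, -0.0482 for citric acid cycle and mitochondrial enzymes, -0.22 for CA3 and -0.0478 for microglial markers. No filter gave 0.0253 for potassium channels, plain _at probe sets gave -0.0266 for thalamic markers, the mean over probe sets gave -0.0765 for astrocytes, and leaving out 1 other array gave -0.0235 (without 1 h) to 0.124 (without 4 h) for immediate early genes. Among the named probe sets at least 2-fold apart, 0 turned sign. The causes were not tested. Dim probe sets limit the comparison, since differences of the other arrays were also wider there.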

Other observations

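Gene pairs of one complex or family that stood on opposite sides at 2 h recur among the genes named above: Hspa4l and Hspa4 among the chaperones, Uqcrc1 and Uqcrc2 in complex III, Psmd3 and Psmd11 in the proteasome, and Chga and Chgb among the granins. In each of these pairs both members lay outside the range of the 1, 4 and 6 h arrays. The pairs were picked after their values were seen.

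Some neuronal genes whose probe sets were too dim to be compared were also higher at 2 h, while other uncompared probe sets of the fixed genes were lower. The brighter uncompared probe set of Camk2a, the kinase of synaptic plasticity, had a difference of 2.32. Its 1 and 6 h signals, 41.0 and 43.3, were close to the 36.8 to which low signals were raised, and its 4 h signal was 195. The second probe set of Vamp2 gave 197, 837, 146.5 and 229, a difference of 2.16, and Grin2b, an NMDA receptor subunit gene, gave 79.5, 459, 104 and 276, a difference of 1.80. The other Vamp2 probe set, which was bright, had a difference of 0.15. For Grin2b the 6 h array was nearer to the 2 h array than the 1 and 4 h arrays were. Lower uncompared probe sets included those of Tsc22d3 (-1.93) and Per2 (-0.57) and the dimmer ones of Fos (-0.64) and Dusp6 (-0.52).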
